A study of Caenorhabditis elegans with 24 samples.

Results

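The 10 genes followed here belong to the TGF-beta signalling system of the nematode Caenorhabditis elegans and were measured in its neurons: the ligand genes daf-7, dbl-1, unc-129 and tig-2, the receptor genes daf-1 and daf-4, the Smad genes daf-8, daf-14 and daf-3, and the Smad partner daf-5. Every probe set of the Affymetrix C. elegans GeneChip whose single gene symbol was one of these names was taken, whatever its values, which gave 17 of 22548 probe sets (controls left out), or 10 of the 17118 genes with a single symbol. Of the 10 genes, 4 had 1 probe set, 5 had 2 and daf-5 had 3. The suffix s_at marks 5 probe sets that match several transcripts and x_at marks 2 that are prone to cross-hybridization, both of them of daf-5.

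Neuronal RNA was compared with reference RNA in 3 settings. The embryonic pan-neural sample (3 arrays) was made from neurons of strain NW1229, in which the evIs111 transgene drives GFP from the pan-neural F25B3.3 promoter. The cells were dissociated from embryos, kept in culture for 24 hours and sorted by flow cytometry. Its reference (4 arrays) was a profile obtained earlier from all viable wild-type cells of such cultures. For both larval samples mid-L2 larvae were used with the mRNA-tagging method. A transgene expresses the poly(A)-binding protein PAB-1 with a FLAG tag in selected cells only, and antibody against FLAG then recovers the messages bound to it. The larval pan-neural sample (3 arrays) came from strain SD1241, which carries F25B3.3::FLAG::PAB-1 on the integrated array gaIs153. The larval A-class sample (4 arrays) came from strain NC694, which carries unc-4::3XFLAG::PAB-1 on the extrachromosomal array wdEx257. By the study's account the unc-4 tag was seen in A-class motor neurons, more weakly in those of the DA class, and also in a few other neurons of the head and pharynx. The larval reference (5 hybridizations) was RNA held nonspecifically in mock pull-downs from wild-type N2 larvae without a tag, and it served both larval samples, once in the normalization of each. The 24 samples thus held 19 independent hybridizations. Each of the 3 sets was normalized on its own, so levels were compared within a set and only changes against the reference were compared across sets.

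TGF-beta ligands are secreted dimers that bring together type I and type II receptor kinases, which phosphorylate receptor-regulated Smads and so alter transcription. In C. elegans DAF-7, known from the ASI pair of sensory neurons, acts through the type I receptor DAF-1, the type II receptor DAF-4 and the Smads DAF-8 and DAF-14, which oppose the co-Smad DAF-3 and its Sno/Ski partner DAF-5 and keep larvae from entering the dauer stage. DBL-1, a BMP-like ligand of the Sma/Mab branch, shares DAF-4 and sets body size, and UNC-129 guides motor axons and is known from dorsal body wall muscle and from motor neurons.

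The signal of the 5′ end of a Gapdh control transcript was below that of its 3′ end on all arrays, with a mean gap of 0.78 ± 0.14 (log2, SD) for embryonic neurons against 1.16 ± 0.12 for all embryonic cells. The larval pan-neural gap was 2.74 ± 0.14 against 2.20 ± 0.56 for the references, and the A-class gap was 2.49 ± 0.26 against 2.41 ± 0.59. Its part in the changes of the 17 probe sets was not tested. Replicate arrays correlated with a squared r of 0.918 to 0.991 within groups across all probe sets. Lists of marker genes were used to check the labels. Neuron markers were called higher than in the reference for 10 of 11 genes in the larval pan-neural sample, as were 6 of 6 A-class and cholinergic genes and 4 of 4 GABA genes. In the A-class sample these counts were 3 of 11, 4 of 6 and 0 of 4. There 2 of the GABA genes had an unadjusted p under 0.05, and the median log2 change of the GABA list was −0.19. In embryonic neurons the counts were 3 of 11, 1 of 6 and 1 of 4. Of all probe sets 6.08% were called higher in the larval pan-neural, 0.776% in the A-class and 1.96% in the embryonic comparison. The median log2 change of the neuron markers was 1.39, 0.53 and 0.93 in the same order. Of the 11 neuron genes 10, 6 and 8 had an unadjusted p under 0.05. The ASI marker str-3 was near the floor of the array in all 6 groups, that is, under the 25th percentile of the probe sets of its group, and the ASI marker gpa-4 was called in no comparison.

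In embryonic neurons 1 of the 10 genes, unc-129, fell and none rose. A probe set was called where limma gave an adjusted p under 0.01 (Benjamini-Hochberg over all 22548 probe sets) and a change of at least 1.5-fold. By this rule 2.78% of all probe sets were lower in embryonic neurons and 1.96% were higher, against 1 lower and 0 higher among the 17. At an unadjusted p under 0.05, 5 of the 17 were higher and 2 were lower. Here and elsewhere the share of all probe sets under that p was not taken. Such counts are therefore not read as a result about the genes. The arrays of both groups did not overlap for 3 probe sets that were higher and for 2 that were lower, where 15.3% and 13.4% of all probe sets did so. The median log2 change of the 17 was 0.14, beside 0.04 over all probe sets.

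Of the 10 genes 5 rose in the larval pan-neural sample and none fell, namely the ligands daf-7, unc-129 and tig-2, the receptor daf-1 and the co-Smad daf-3. The background was 6.08% of probe sets called higher and 3.34% called lower by limma, against 5 and 0 of the 17. At an unadjusted p under 0.05 the counts were 11 higher and 0 lower, with no share of all probe sets to set beside them. The arrays did not overlap for 10 of the 17, all of them higher, where 12.5% of all probe sets were higher without overlap. The median log2 change of the 17 was 0.78, beside 0.00 over all probe sets, and single values ran from 0.00 for daf-8 to 1.32 for unc-129. Only 1 hybridization day held arrays of both groups, which was seen from the array records after the data had been examined: larval pan-neural replicates 2 and 3 with references 4 and 5. With the day as a fixed block none of the 17 was called and 376 of all probe sets were called higher in place of 1372. With the day as a random block all 5 calls were kept. Within the shared day alone, with 2 arrays against 2, none of all probe sets was called. A missing call within that day, given for single genes below, therefore says little about the gene.

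In the A-class sample unc-129 alone rose and none fell. The background was 0.776% of probe sets called higher and 0.115% called lower by limma, against 1 and 0 of the 17, and at an unadjusted p under 0.05 there were 3 higher and 0 lower. The arrays did not overlap for 3 probe sets, those of unc-129, tig-2 and 175643_s_at of dbl-1, all higher, where 3.92% of all probe sets were higher and 2.81% lower without overlap. The median log2 change of the 17 was 0.04, beside −0.01 over all probe sets. Both larval comparisons used the same 5 reference hybridizations, so their values are given side by side and no likeness between them was measured.

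**Figure D1:**
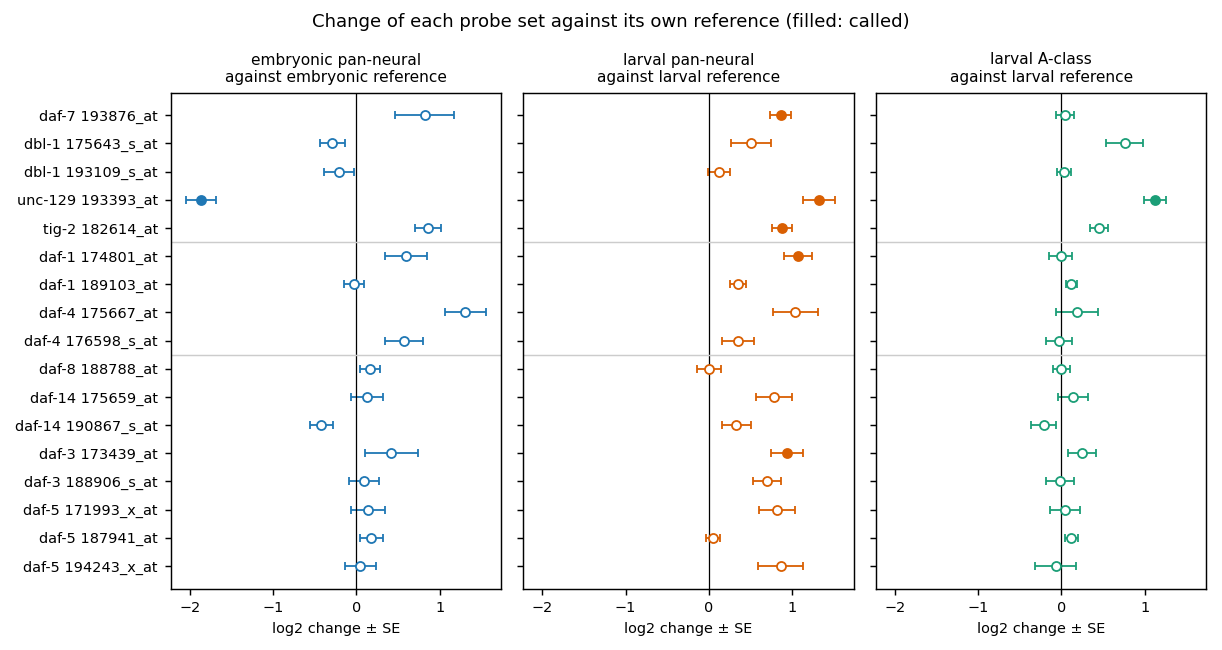
Log2 change of each of the 17 probe sets against its own reference (horizontal axis, log2 units, bars show the SE of limma), for embryonic pan-neural, larval pan-neural and larval A-class samples. Filled points were called at an adjusted p under 0.01 and at least 1.5-fold: unc-129 lower in embryonic neurons, 5 genes higher in the larval pan-neural sample and unc-129 higher in the A-class sample, and grey lines part ligands, receptors and Smads with daf-5.

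The ligand whose transcript moved most was unc-129. On the 4 embryonic reference arrays its log2 intensity was 7.64, 8.13, 7.74 and 7.93, and on the 3 arrays of embryonic neurons it was 6.21, 6.13 and 5.63. Every neuronal array lay below every reference array, by more than 1 log2 unit. The change was −1.87 ± 0.18 (log2, SE, n = 3 and 4, adjusted p = 0.00165), a 3.66-fold fall. As with every bulk value here, fewer cells that hold a transcript and less transcript per cell cannot be told apart.

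Body wall muscle markers fell with unc-129 in the embryonic neurons. Of 11 such genes 5 were called lower and none higher, and their summed intensity was 8360 to 11591 on the reference arrays and 6075 to 6736 on the neuronal arrays, with unc-22 near the floor in both. Markers of dividing cells were also lower (3 of 5 genes, sums of 4497 to 7414 and of 1189 to 1703), and so were hypodermis markers (2 of 8 genes, sums of 4939 to 11384 and of 939 to 2415, with col-19 near the floor in both and elt-3, bli-1 and nlp-29 in the neurons). Of 10 intestine genes 1 was called higher and none lower (median log2 change −0.06). None of the 6 pharyngeal muscle genes (median −0.33) or the 6 germline genes (median 0.03) was called. The part of these lists in the fall of unc-129 was not tested. The embryonic groups shared neither a hybridization day nor a chip lot, so neither day nor lot can be told apart from group. With the day as a random block the change of unc-129 was −1.88 (adjusted p = 0.00527). That fit allows for spread between days but cannot part day from group.

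In larvae the same probe set was higher in neurons. The 5 references of the pan-neural set read 5.91, 6.26, 5.65, 6.06 and 6.17 (log2 intensity of unc-129), and the 3 larval pan-neural arrays read 6.96, 7.31 and 7.71. The groups did not overlap, and the rise was 2.49-fold (1.32 ± 0.19, adjusted p = 0.00128). Within the shared hybridization day the change was 1.40 (adjusted p = 0.0293), which is past the fold but not past the adjusted p of 0.01. Of 11 body wall muscle marker genes 1 was called lower in this sample and none higher. Their summed intensity was 36166 to 40657 in the references and 21666 to 32531 in the pan-neural arrays. The part of muscle RNA in the change of unc-129 was not tested.

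The A-class arrays gave a similar picture for unc-129. The references normalized with them read 6.08, 6.39, 5.86, 6.16 and 6.30 (log2 intensity), and the 4 A-class arrays read 7.59, 7.11, 7.24 and 7.15. Again no array overlapped, and the rise was 2.17-fold (1.12 ± 0.13, n = 4 and 5, adjusted p = 0.00219). A-class and reference arrays shared no hybridization day, so day and group cannot be told apart here either. With the day as a random block the change was 1.14 (adjusted p = 0.00778). With only references 4 and 5, a choice made after seeing the data, it was 1.04 (adjusted p = 0.0467). Limma called none of the 11 body wall muscle genes in the A-class sample, and 4 had an unadjusted p under 0.05. The part of muscle RNA in the A-class change of unc-129 was not tested either.

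The contrast of embryonic and larval changes of unc-129 was itself tested. The embryonic change lay below the larval pan-neural change by −3.19 ± 0.27 (log2, 15 arrays, adjusted p = 1.19e-05), and it was the only one of the 17 probe sets called in this contrast, where 3.13% of all probe sets were called lower and 1.88% higher. At an unadjusted p under 0.05, 6 of the 17 were lower. The A-class change exceeded the embryonic change by 2.99 ± 0.22 (16 arrays, adjusted p = 1.46e-06), again the only call among the 17, with 3.97% of all probe sets called higher and 3.18% lower, and at an unadjusted p under 0.05 there were 2 higher and 4 lower. The A-class change of unc-129 did not differ detectably from the larval pan-neural change, with a difference of −0.20 ± 0.19 and a 95% interval of −0.63 to 0.23. The order of the changes was thus larval pan-neural, A-class and embryonic, with the first 2 not separated beyond their error.

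The dauer ligand gene daf-7 was above its reference in the larval pan-neural sample and level with it in the A-class sample. On the embryonic reference arrays it read 9.41, 8.30, 8.47 and 8.08 (log2 intensity) and on the neuronal arrays 9.59, 9.74 and 8.84. Reference replicate 1 lay above neuronal replicate 3, so the groups overlapped. The embryonic change of 0.82 ± 0.35 was not called (adjusted p = 0.155), and its 95% interval was 0.02 to 1.63.

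In larvae daf-7 read 7.19, 7.47, 7.47, 7.74 and 7.37 on the references of the pan-neural set and 8.43, 8.17 and 8.32 on the pan-neural arrays. All 3 neuronal arrays were above all references, and daf-7 rose 1.82-fold (0.86 ± 0.13, adjusted p = 0.00167). Within the shared day the change was 0.69 (adjusted p = 0.0859), and without larval pan-neural replicate 3 it was 0.86 (adjusted p = 0.011). The ASI marker gpa-4 had a change of −0.08 ± 0.10 (adjusted p = 0.669) in the same comparison. Both ASI markers were low. Summed over their 2 probe sets, the intensity was 64 to 74 on the references and 63 to 70 on the pan-neural arrays. The median intensity of a single probe set on the reference arrays was 61.8 to 62.5. The part of ASI neurons in the rise of daf-7 was not tested.

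In the A-class set the 5 references read 6.89, 7.21, 7.21, 7.46 and 7.21 for daf-7, and the A-class arrays read 7.40, 7.21, 7.12 and 7.21. The groups lay on top of each other, with a change of 0.04 ± 0.11 (95% interval −0.21 to 0.28). Against the larval pan-neural change the A-class change was lower by −0.82 ± 0.11 (7 pull-down arrays after subtraction of the reference mean, adjusted p = 0.00174). This call was kept with the hybridization day as a random block (−0.83, adjusted p = 0.00965) and was lost without larval pan-neural replicate 3 (−0.82, adjusted p = 0.0115). The A-class and pan-neural arrays had no hybridization day in common, so the random block cannot part day from sample. The embryonic and larval pan-neural changes of daf-7 differed by −0.04 ± 0.37, with a 95% interval of −0.83 to 0.75.

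The third ligand gene, tig-2, encodes a TGF-beta ligand whose role is less well described. The embryonic references read 6.0, 5.64, 5.69 and 5.39 (log2 intensity of tig-2) and the embryonic neurons 6.48, 6.42 and 6.71. The groups did not overlap, but the change of 0.86 ± 0.16 missed the adjusted threshold (adjusted p = 0.013), and without embryonic reference replicate 1 it passed (0.96, adjusted p = 0.00646). The references of the larval pan-neural set read 6.87, 6.88, 6.88, 7.08 and 7.16 and the neuronal arrays 7.90, 7.64 and 8.01. Here tig-2 rose 1.84-fold (0.88 ± 0.12, adjusted p = 0.000969), the smallest adjusted p of the 17. Within the shared day the change was 0.71 (adjusted p = 0.079).

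For tig-2 the A-class arrays read 7.29, 7.08, 7.18 and 7.59, all above their references at 6.74, 6.78, 6.77, 6.94 and 6.96. The change of 0.45 ± 0.11 was not called (1.36-fold, adjusted p = 0.0549). It lay below the larval pan-neural change by −0.43 ± 0.15 (adjusted p = 0.0931, 95% interval −0.76 to −0.10). The embryonic change of tig-2 minus the larval pan-neural change was −0.02 ± 0.20, with a 95% interval of −0.45 to 0.41.

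The Sma/Mab ligand gene dbl-1 was represented by 2 probe sets, both shared by several transcripts, and they did not give the same picture. On 175643_s_at the A-class arrays read 7.24, 6.50, 6.80 and 6.55 (log2 intensity) and their references 5.55, 5.74, 6.42, 5.89 and 6.45. The lowest A-class array lay just above the highest reference, and the change of 0.76 ± 0.22 was not called (adjusted p = 0.103). On 193109_s_at the A-class arrays read 5.92, 5.92, 5.90 and 5.92 and the references 6.04, 5.81, 6.01, 5.79 and 5.78, a change of 0.03 ± 0.08.

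Both dbl-1 probe sets overlapped their references in the larval pan-neural set, with changes of 0.50 ± 0.24 (adjusted p = 0.198) for 175643_s_at and 0.12 ± 0.13 (adjusted p = 0.612) for 193109_s_at. In embryonic neurons the changes were −0.29 ± 0.15 and −0.21 ± 0.18, again with overlap. On 193109_s_at embryonic reference replicate 3 stood apart at 6.29, with the other 3 references at 5.67 to 5.72, and without it the change was −0.06 (adjusted p = 0.75). The A-class change of 175643_s_at exceeded the embryonic change by 1.05 ± 0.30, which was not called (adjusted p = 0.0258).

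**Figure D2:**
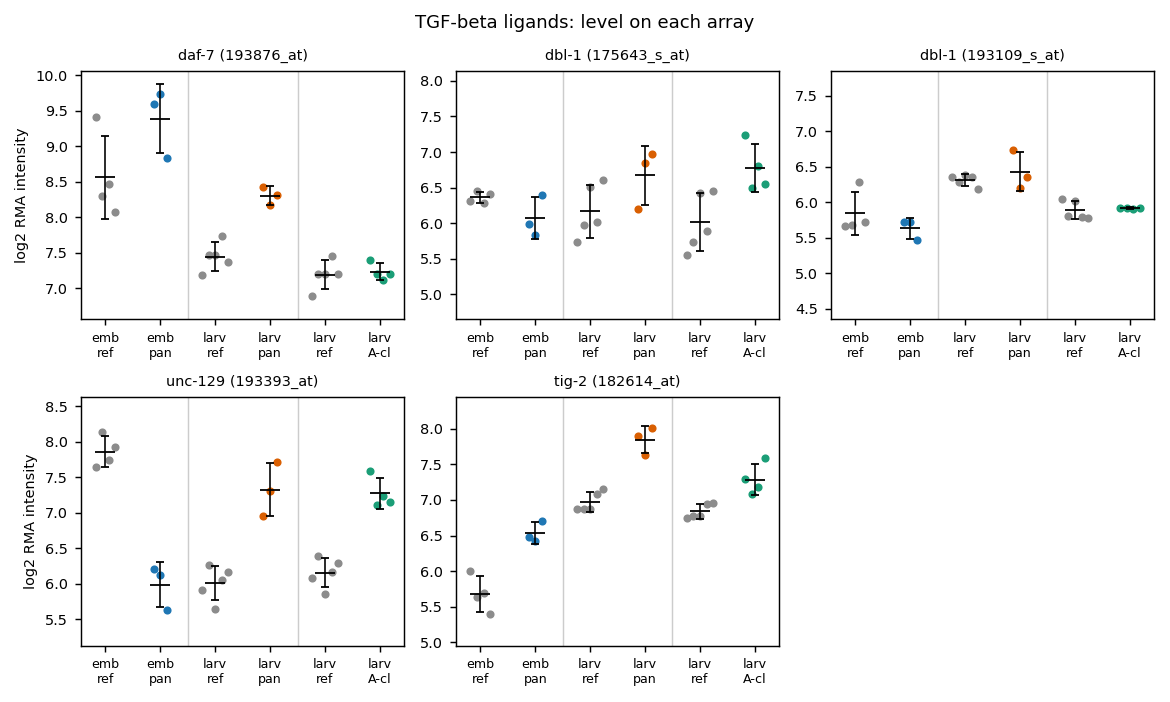
Log2 RMA intensity (vertical axis) of the 5 ligand probe sets on every array, by group (horizontal axis: embryonic reference and pan-neural, larval reference and pan-neural, and the same larval references as normalized with the A-class arrays). Points are arrays and bars show mean ± SD: unc-129 lies at 5.63 to 6.21 in embryonic neurons, below the 7.64 to 8.13 of their reference, and at 6.96 to 7.71 in the larval pan-neural arrays, above 5.65 to 6.26.

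Of the receptor genes only daf-1 was called against a reference, in the larval pan-neural sample. For the type I receptor gene daf-1, probe set 174801_at read 7.64, 7.70, 7.94, 7.96 and 8.11 on the larval references (log2 intensity) and 9.18, 8.55 and 9.10 on the pan-neural arrays. No array overlapped, and daf-1 rose 2.11-fold on this probe set (1.07 ± 0.17, adjusted p = 0.00211). Within the shared day the change was 0.79 (adjusted p = 0.108). The call was lost without larval pan-neural replicate 1 (0.96, adjusted p = 0.0125) and without replicate 3 (0.99, adjusted p = 0.015). The other daf-1 probe set, 189103_at, also did not overlap but changed by only 0.35 ± 0.10 (1.27-fold, adjusted p = 0.0398).

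The A-class arrays showed no such difference for daf-1. On 174801_at they read 7.90, 7.66, 7.45 and 8.11, across the range of their references at 7.64 to 8.0. The change was −0.01 ± 0.14 (95% interval −0.31 to 0.30). The A-class change lay below the larval pan-neural change by −1.08 ± 0.20 (adjusted p = 0.00931), close to the threshold. That call was lost without any 1 of the 4 A-class arrays, without larval pan-neural replicate 1 or 3 and without larval reference replicate 1 (adjusted p from 0.0101 to 0.0484). It was also lost with the day as a random block (−1.07, adjusted p = 0.0536). In embryonic neurons daf-1 had changes of 0.60 ± 0.25 (174801_at, adjusted p = 0.151) and −0.03 ± 0.12 (189103_at), both with overlap.

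The type II receptor gene daf-4, whose product serves both the dauer and the Sma/Mab branch, had the largest upward change of the 17 in embryonic neurons, but it was not called. On 175667_at the embryonic references read 8.97, 8.37, 7.84 and 8.65 (log2 intensity) and the neurons 9.64, 9.87 and 9.78. The groups did not overlap, and the change was 1.31 ± 0.25 (2.47-fold, adjusted p = 0.0139). It passed when probe sets under the 25th percentile in both groups were left out (adjusted p = 0.00866) and without embryonic reference replicate 1 (1.48, adjusted p = 0.0063). The second probe set, 176598_s_at, changed by 0.57 ± 0.23 (adjusted p = 0.142), also without overlap.

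For daf-4 the larval pan-neural set read 8.32, 9.17, 9.43, 9.32 and 9.68 on the references and 10.39, 9.98 and 10.31 on the neuronal arrays (175667_at). Every neuronal array was higher, and the change of 1.04 ± 0.27 was not called (2.06-fold, adjusted p = 0.025). Reference replicate 1 was the lowest, and without it the change was 0.83 and was called (adjusted p = 0.00736). The A-class arrays of daf-4, at 9.60, 9.14, 9.32 and 9.58, fell within their references at 8.36 to 9.76, a change of 0.19 ± 0.25.

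Between the larval samples the A-class change of daf-4 was lower on 175667_at by −0.85 ± 0.15 (adjusted p = 0.00759) and on 176598_s_at by −0.38 ± 0.11 (adjusted p = 0.063). The first call was lost without A-class replicate 2, 3 or 4 and without larval pan-neural replicate 1 or 3 (adjusted p from 0.0149 to 0.0401). With the day as a random block the difference was −0.84 (adjusted p = 0.04). Against the embryonic change the A-class change of 175667_at was −1.12 ± 0.37 (adjusted p = 0.0565).

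Of the Smad genes only daf-3, which encodes the co-Smad that promotes dauer entry, was called in a comparison with a reference. On 173439_at the larval references read 8.53, 8.58, 8.84, 8.51 and 9.26 (log2 intensity) and the pan-neural arrays 9.42, 9.74 and 9.88. The groups did not overlap, and daf-3 rose 1.92-fold (0.94 ± 0.19, adjusted p = 0.00758). The call was lost when any array other than reference replicate 5 was left out (adjusted p from 0.0131 to 0.0431), and within the shared day the change was 0.93 (adjusted p = 0.124). The second daf-3 probe set, 188906_s_at, changed by 0.70 ± 0.17 (adjusted p = 0.0189), also without overlap.

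In the other settings daf-3 overlapped its references on both probe sets. The embryonic neurons read 8.82, 9.07 and 8.17 on 173439_at against references of 8.46, 8.40, 7.51 and 8.68, a change of 0.42 ± 0.32. The A-class changes were 0.25 ± 0.17 on 173439_at and −0.02 ± 0.17 on 188906_s_at. The larval samples differed by −0.69 ± 0.19 (adjusted p = 0.0449) and −0.72 ± 0.21 (adjusted p = 0.0583) on these probe sets, A-class minus pan-neural, and neither was called.

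The receptor-regulated Smad genes daf-8 and daf-14 were called in no main comparison. The probe set of daf-8 read 5.00 to 5.41 on the larval references and 5.45, 5.23 and 4.95 on the larval pan-neural arrays (log2 intensity), with full overlap and a change of 0.00 ± 0.14. Its changes in embryonic neurons and in the A-class sample were 0.16 ± 0.12 and 0.00 ± 0.10. In the 3 comparisons with a reference the 95% interval of daf-8 lay between −0.32 and 0.44.

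For daf-14 the 175659_at arrays read 7.79, 7.63, 8.03, 6.98 and 7.68 in the larval references and 8.17, 8.38 and 8.65 in the pan-neural sample. The groups did not overlap, and the change of 0.78 ± 0.22 was not called (1.72-fold, adjusted p = 0.0338). The study, by another test (SAM), listed daf-14 as enriched in the larval pan-neural sample. The second probe set, 190867_s_at, changed by 0.33 ± 0.17 in the same comparison. In embryonic neurons 190867_s_at lay lower, at 7.63, 7.62 and 7.21 against 7.76 to 7.99, without overlap and without a call (−0.42 ± 0.14, adjusted p = 0.0824), while 175659_at changed by 0.13 ± 0.19. The A-class changes of daf-14 were 0.14 ± 0.18 and −0.21 ± 0.15 on the same probe sets. The A-class changes lay below the larval pan-neural changes by −0.64 ± 0.13 (adjusted p = 0.0137) and −0.54 ± 0.14 (adjusted p = 0.0386).

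The Sno/Ski gene daf-5 had 3 probe sets, of which 187941_at was near the floor in 5 of the 6 groups and could hardly show a change. On 194243_x_at the larval references read 9.43, 9.46, 10.39, 9.04 and 9.92 (log2 intensity) and the pan-neural arrays 10.72, 10.34 and 10.45. Reference replicate 3 overlapped the neuronal arrays, and the change was 0.86 ± 0.27 (adjusted p = 0.0533). Without that reference it was 1.05 and was called (adjusted p = 0.00908). On 171993_x_at the groups did not overlap, with references at 7.17 to 8.05 and neuronal arrays at 8.27 to 8.65, and the change was 0.82 ± 0.22 (adjusted p = 0.031).

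The A-class arrays of daf-5 read 8.04, 7.78, 7.81 and 7.80 on 171993_x_at and 9.84, 9.49, 9.50 and 9.53 on 194243_x_at, both inside the range of their references. Replicate 1 was the highest on both, and it alone was washed by another protocol than the other 3 A-class arrays. The A-class change lay below the larval pan-neural change by −0.78 ± 0.12 (171993_x_at, adjusted p = 0.0038) and −0.93 ± 0.13 (194243_x_at, adjusted p = 0.00255). Without A-class replicate 1 both calls were kept, at −0.84 and −1.02. Both were lost without A-class replicate 2, 3 or 4 or larval pan-neural replicate 3, and the first also without larval pan-neural replicate 1 (adjusted p from 0.0106 to 0.021). In embryonic neurons daf-5 had changes of 0.14 ± 0.20, 0.05 ± 0.19 and 0.18 ± 0.14, the last on 187941_at.

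**Figure D3:**
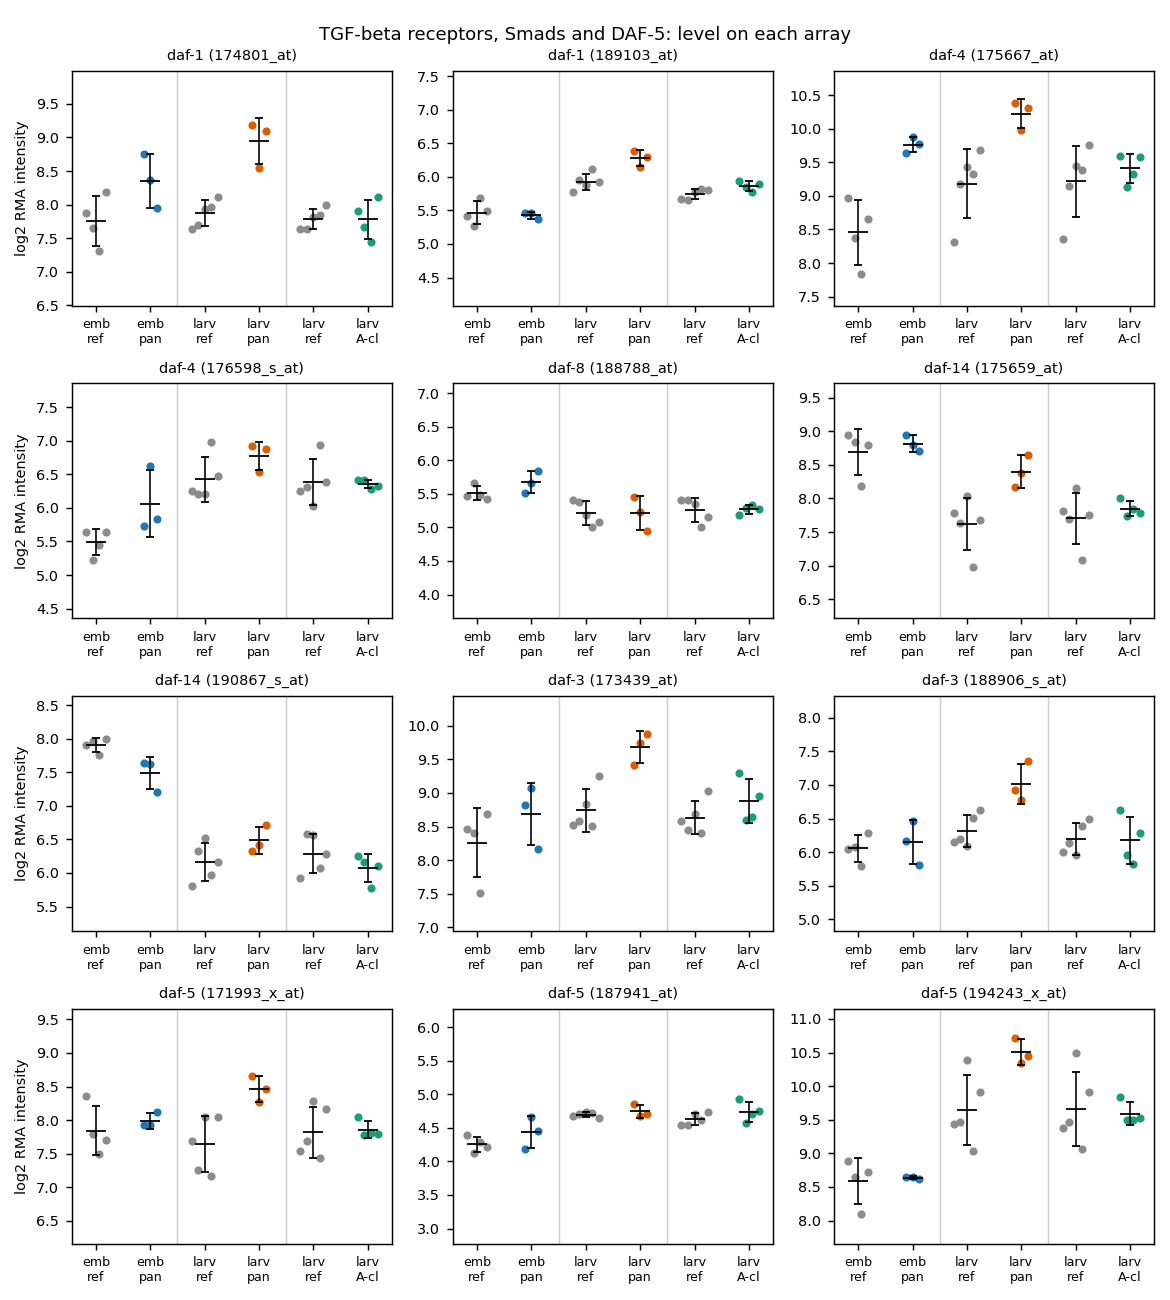
Log2 RMA intensity (vertical axis) of the 12 probe sets of receptors, Smads and daf-5 on every array, by group as in the plot of ligand levels, with points for arrays and bars for mean ± SD. For daf-1 on 174801_at the larval pan-neural arrays lie at 8.55 to 9.18, above all references, while the A-class arrays lie at 7.45 to 8.11 among theirs.

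The comparison of the larval samples thus gave 5 of the 17 probe sets lower in the A-class sample, of the genes daf-7, daf-1, daf-4 and daf-5, and none higher. Among all probe sets limma called 3.76% lower and 1.95% higher. At an unadjusted p under 0.05, 12 of the 17 were lower and 0 higher, but the share of all probe sets under that p was not taken. For 11 of the 17 every larval pan-neural array lay above every A-class array after subtraction of the reference mean, where 12.8% of all probe sets did so. The exceptions were unc-129, tig-2, both probe sets of dbl-1, daf-8 and 187941_at of daf-5. With the day as a random block the calls were those of daf-7 and of 194243_x_at of daf-5, and 361 of all probe sets were called lower in place of 847. The larval samples shared no hybridization day, so day and sample cannot be told apart.

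Neuron markers moved in the same direction between these samples. Of 11 neuron marker genes 6 were called lower in the A-class sample and none higher, with a median log2 difference of −0.92 over their probe sets, beside −0.54 over the 17 probe sets of the TGF-beta genes. The summed intensity of the neuron markers was 21320 to 28985 on the larval pan-neural arrays and 11069 to 14395 on the A-class arrays, over references of 6970 to 10081 and 6249 to 9050. All 4 GABA marker genes were lower (median −1.25), and of 6 A-class and cholinergic genes 1 was higher and 1 lower. Hypodermis markers were higher in the A-class sample (4 of 8 genes). Their sums were 24019 to 33020 on the A-class arrays over references of 16320 to 25011, and 9291 to 13637 on the pan-neural arrays over references of 17370 to 26727, with col-19 near the floor in every group but the A-class arrays. Some markers of other tissues moved the same way, with 3 of 10 intestine genes higher (median 0.61), 2 of 5 genes of dividing cells (median 0.53) and 1 of 11 body wall muscle genes (median 0.56). None of the 6 pharyngeal muscle genes (median 0.36) or the 6 germline genes (median 0.18) was called. The summed intensity of the intestine markers was 20454 to 22785 on the A-class arrays over references of 18653 to 22680. On the pan-neural arrays it was 10423 to 13807 over references of 19501 to 23244, and 5 of the 10 intestine genes were called lower there than in the references. The part of these lists in the differences of daf-7, daf-1, daf-4 and daf-5 was not tested.

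**Figure D4:**
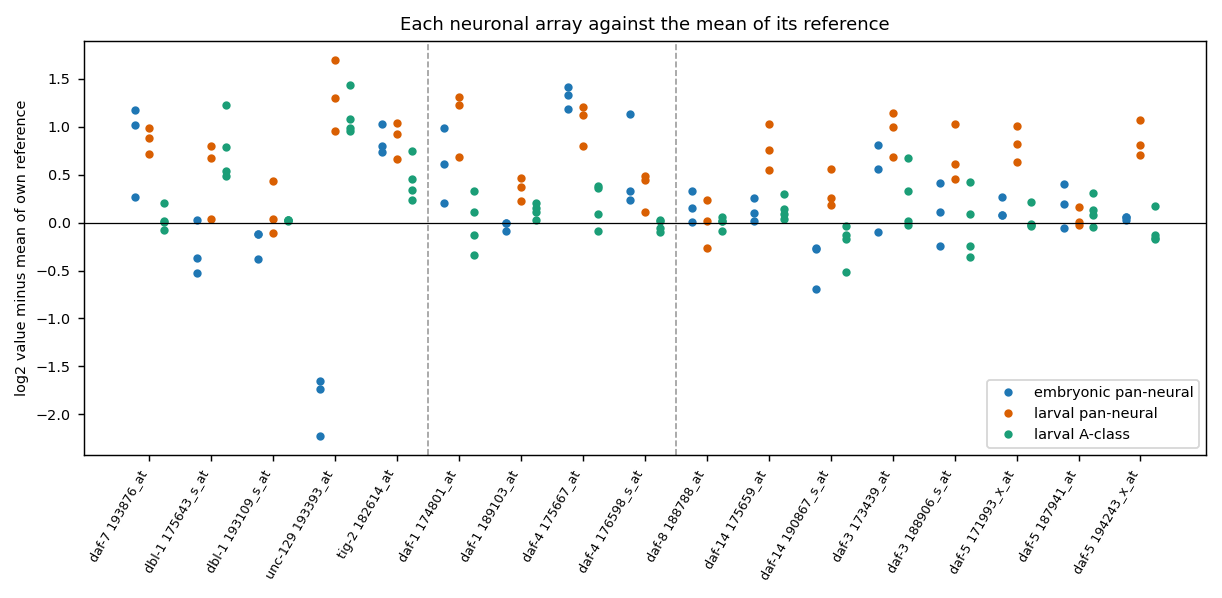
Log2 value of each neuronal array minus the mean of its own reference (vertical axis, log2 units) for the 17 probe sets (horizontal axis), with 3 embryonic pan-neural, 3 larval pan-neural and 4 A-class arrays. All embryonic values of unc-129 lie between −2.23 and −1.65 and its larval values at 0.95 or above, and for daf-7 the larval pan-neural arrays lie at 0.72 to 0.99 and the A-class arrays at −0.08 to 0.20.

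Other genes of the same pathways were read from lists of textbook members. Of 19 listed genes of the Sma/Mab branch outside the 10, 16 were measured. In embryonic neurons 2 of the 16 fell and none rose, or 2 of 28 probe sets beside 2.78% called lower over all: sma-3, the receptor-regulated Smad of that branch, by 1.70 ± 0.23 (log2, adjusted p = 0.00415), and adt-2, an ADAMTS protease gene, by 1.18 ± 0.18 (adjusted p = 0.00631). Of the same genes 2 rose and 2 fell in the larval pan-neural sample. By probe sets this was 2 higher and 2 lower of 28, beside 6.08% higher and 3.34% lower over all probe sets, and the list's median log2 change was −0.11, so counts this small are not read as a result about the branch. Those named by the size of their change were tag-68, an inhibitory Smad homologue (1.16 ± 0.18), lon-2, a glypican gene that restrains DBL-1 signalling (0.76 ± 0.11), and mab-31, which fell by 0.88 ± 0.13. None of the 16 was called by limma in the A-class sample, where 8 had an unadjusted p under 0.05 and the list's median log2 change was −0.03.

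Genes that act upstream of or beside daf-7 in the dauer decision were also read in this way. In the larval pan-neural sample, of 11 measured genes 4 rose and none fell, or 5 of 18 probe sets beside 6.08% called higher over all, with a median log2 change of 0.47. The 3 with the largest changes were scd-2, an ALK-type receptor kinase gene (1.85 ± 0.14, adjusted p = 3.54e-05), daf-11, a receptor guanylate cyclase gene (1.44 ± 0.20), and hen-1, which encodes a secreted ligand of SCD-2 (1.42 ± 0.18). The level of hen-1 was near the floor in every group but the larval pan-neural arrays. In embryonic neurons scd-2 rose by 1.95 ± 0.23 (adjusted p = 0.00286), the only call of this list. In the A-class sample limma called none (1 had an unadjusted p under 0.05), and 4 of the 11 were lower than in the larval pan-neural sample, that is 4 of 18 probe sets beside 3.76% over all, among them hen-1 (−1.54 ± 0.20), scd-2 (−1.49 ± 0.13) and daf-11 (−1.40 ± 0.15). This is the direction in which daf-7 differed between the samples, and neuron and GABA markers moved that way too. The median log2 differences of those markers were −0.92 and −1.25, beside −0.45 for this list.

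In the insulin and steroid hormone branch of the dauer decision 1 of 13 genes rose in the larval pan-neural sample, daf-28, an insulin-like peptide gene (2.44 ± 0.40, adjusted p = 0.00287). This was 1 of 29 probe sets, beside 6.08% called higher over all, and the list's median log2 change was 0.06. Its A-class change minus its larval pan-neural change was −2.34 ± 0.41 (adjusted p = 0.0071). Limma called none of the 13 in embryonic neurons or in the A-class sample, where 7 and 2 had an unadjusted p under 0.05. Among the 4 genes that act with UNC-129 in axon guidance, unc-6, the netrin gene, rose beside unc-129 in both larval samples, by 1.47 ± 0.15 in the pan-neural and 1.45 ± 0.20 in the A-class sample (adjusted p = 0.000236 and 0.00463). It was 1 of 8 probe sets of this list in each, beside 6.08% and 0.776% called higher over all. In embryonic neurons limma called none of the 4 (3 had an unadjusted p under 0.05), and unc-130, which encodes a forkhead repressor of unc-129, was called in the contrast of embryonic and larval pan-neural changes (−0.81 ± 0.18, adjusted p = 0.00827). This was 1 of 8 probe sets, beside 3.13% called lower over all. The A-class change exceeded the embryonic one for unc-130 (0.82 ± 0.18) and for the netrin receptor gene unc-5 (1.27 ± 0.30). These were 2 of 8 probe sets, beside 3.97% called higher over all. The call of unc-5 was on an x_at probe set, the type prone to cross-hybridization. Against its own reference unc-5 was called neither in the A-class sample nor in embryonic neurons. By the study's account unc-5 was enriched in its embryonic A-class profile and not elevated in larval VA motor neurons. The embryonic sample used here was pan-neural, so the study's contrast is not the one tested here.

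For each ligand the probe sets with the most similar course over the 10 neuronal arrays, each array taken minus its reference mean, were listed by Pearson's r as a description. The arrays of a group share a reference and a normalization, so the 10 points are not independent. Closest to daf-7 were rgs-3 (r = 0.984), which encodes a regulator of G protein signalling, lgc-20 (0.982), a ligand-gated channel gene, and srm-6 (0.981). Like daf-7, rgs-3 and lgc-20 were above their references in embryonic neurons (means of 1.48 and 1.24) and on larval pan-neural arrays (1.36 and 1.33), but not in the A-class sample (0.10 and −0.01). They were picked for this likeness, so it is no separate result.

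Closest to unc-129 were elp-1 (r = 0.995), clh-1 (0.995), a chloride channel gene, and F20C5.6 (0.993). All 3 were well below the reference in embryonic neurons (means of −3.02, −1.69 and −2.10), but in larvae they did not share the rise of unc-129, with means of −0.21 to 0.51. For tig-2 the closest were the chemoreceptor-family genes srg-2 (0.957) and srg-10 (0.954), and W01B11.6 (0.929). For dbl-1 the 2 probe sets had no gene in common: 175643_s_at was closest to F39G3.5 (0.969), haly-1 (0.966) and mdf-2 (0.960), and 193109_s_at to mib-1 (0.975), Y113G7B.15 (0.974) and nfyb-1 (0.972).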

How the data were processed

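RNA was amplified in 2 rounds, labelled with biotin and hybridized to Affymetrix C. elegans GeneChips. The authors deposited RMA-normalized intensity values on a linear scale, 1 per probe set, with the embryonic, larval pan-neural and larval A-class arrays normalized as 3 separate sets. The version of RMA was not given in the sources used here. The deposited array records, which hold other text, were read for hybridization day, chip lot and wash protocol only.

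Intensities were taken to log2. The 77 control probe sets were left out, which left 22548, of which 20766 had a single gene symbol in the platform annotation, 887 several and 895 none. Each neuronal sample was tested against its reference, and differences between the changes were tested, with limma 3.58.1 in R 4.3.3 and Benjamini-Hochberg adjustment over all 22548. Calls needed an adjusted p under 0.01 and 1.5-fold. To compare the A-class with the larval pan-neural sample, the mean of the 5 references in its set was first taken from each array. The fit was tested on simulated data first. Alternatives were leaving out each array, another prior variance, a filter on low values, log2(intensity + 16), median centring, blocks and subsets of references.

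Labels place larval references 1 to 3 with the embryonic set, but their quantiles lay within 0.233 (log2) of the larval pan-neural arrays and at least 0.51 from the embryonic references, so all 5 served as the larval reference, as the series design states. Copies of a hybridization in both larval sets had a squared r of 0.991 to 0.993, and those of different hybridizations at most 0.977. The labels call all replicates biological. The number of arrays limits the precision.

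All probe sets of the 10 genes were named, and of each list of other pathway genes up to 3 called genes by size of change. For each ligand the 3 most similar probe sets were also named. Members and lists were chosen with earlier results of these data known.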

Additional observations from a re-analysis of the deposited data

Results flagged for a closer look

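Of the 68 groups of 4 or 5 arrays and probe sets examined, 4 held an array that stood apart from the rest by Dixon's criterion, which chance alone gives in about 1 group in 20. For dbl-1 on 193109_s_at embryonic reference replicate 3 was at 6.29 (log2 intensity), with the others at 5.67 to 5.72, and without it the embryonic change was −0.06 (limma, adjusted p = 0.75). On the same probe set A-class replicate 3 was at 5.90, with the others at 5.92, and the A-class change was 0.03 with and without it. For daf-5, A-class replicate 1 was at 8.04 on 171993_x_at, with the others at 7.78 to 7.81, and at 9.84 on 194243_x_at, with the others at 9.49 to 9.53. Without it the A-class changes were −0.02 and −0.16, and the differences from the larval pan-neural change were −0.84 (adjusted p = 0.00417) and −1.02 (adjusted p = 0.0021).

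Changes that differed between samples by the test of the difference itself were those of unc-129, by −3.19 for embryonic minus larval pan-neural and by 2.99 for A-class minus embryonic (log2). For A-class minus larval pan-neural they were those of daf-7 (−0.82), daf-1 on 174801_at (−1.08), daf-4 on 175667_at (−0.85) and daf-5 on 171993_x_at (−0.78) and 194243_x_at (−0.93).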

How the results depend on the processing

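Of the calls on single probe sets, unc-129 kept its direction under every alternative run and its call under all of them in embryonic neurons and in the contrasts of embryonic with larval changes. In the larval pan-neural sample its call was lost with the replicate block, the day as a fixed block, only references 4 and 5 (label set 2) and only the shared day, and in the A-class sample with the replicate block and only references 4 and 5. For each lost call the cause was not tested, but the subsets hold fewer arrays. The subsets by shared day, the A-class subsets of references and the day as a random block in contrasts of changes were chosen after seeing the data. The number of arrays, and for daf-5 on 187941_at its closeness to the floor, limits what could be seen.

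Among the 17 probe sets, the embryonic comparison had 1 higher with the filter at the 25th percentile. Of all probe sets, 278 were higher and 397 lower with log2(intensity + 16), and 121 and 220 with the day as a random block. In the larval pan-neural comparison none of the 17 (0) was called with the day as a fixed block (376 and 49 of all), with only references 4 and 5 (351 and 33) or within the shared day (0 and 0). In the A-class comparison 14 of all were lower with log2(intensity + 16), 107 were higher and 9 lower with the random block, and with only references 4 and 5 none of the 17 (0) was called, with 4 and 2 of all. With the random block 268 of all were higher for embryonic minus larval pan-neural, and 581 higher and 392 lower for A-class minus embryonic. For A-class minus larval pan-neural 3 of the 17 were lower and 250 of all higher with log2(intensity + 16), and 2 of the 17 were lower, with 93 higher and 361 lower of all, with the random block.

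The replicate numbers of the labels gave little sign of pairing. Same-numbered arrays correlated by 0.05 to 0.33 in the embryonic, −0.23 to 0.15 in the larval pan-neural and −0.42 to −0.08 in the A-class set. The reference of the same number was the best match for embryonic replicate 3 and larval pan-neural replicates 1 and 2, but for no A-class replicate. With the replicate number as a block, 168 higher and 271 lower calls were made among all probe sets in embryonic neurons. In the larval pan-neural sample there were 731 and 252, with 2 of the 17 higher, and in the A-class sample 12 and 0, with 0 of the 17.

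Leaving out 1 array at a time gave these ranges of calls. In embryonic neurons 0 to 2 of the 17 were higher and 1 lower, with 24 to 566 and 89 to 762 of all, lowest without embryonic pan-neural replicate 1. In the larval pan-neural sample 2 to 5 of the 17 were higher, with 887 to 1343 higher and 198 to 882 lower of all, and in the A-class sample 1 of the 17, with 82 to 153 and 7 to 39. For embryonic minus larval pan-neural 1 of the 17 was lower in each fit, with 208 to 489 higher and 401 to 917 lower of all. For A-class minus larval pan-neural 0 to 5 were lower, with 91 to 629 and 446 to 916 of all, lowest without larval pan-neural replicate 3, which also gave the lowest counts, 2 of the 17 and 887 and 198 of all, in the comparison of that sample with its references. For A-class minus embryonic 1 was higher and 0 to 1 lower, with 661 to 1178 and 453 to 927 of all. Calls gained in the embryonic and larval pan-neural comparisons stand beside their values in the report. In the contrasts of changes the calls gained were daf-4 on 175667_at without larval reference 1 (−1.34, adjusted p = 0.00841) and daf-7 without embryonic reference 1 (−1.07, adjusted p = 0.00988) for A-class minus embryonic, and daf-14 on 175659_at without larval pan-neural replicate 1 (−0.75, adjusted p = 0.00954) for A-class minus larval pan-neural.

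Changes of sign were limited to probe sets without a call. In the larval pan-neural comparison daf-8 was at −0.02 with median centring and −0.11 with the replicate block and with references 1 to 3, and daf-4 on 176598_s_at at −0.03 with the fixed block and within the shared day. In the A-class comparison daf-8 was at 0.00 (centring), −0.02 (replicate block), −0.01 (random block) and −0.12 (references 1 to 3), daf-1 on 174801_at at 0.05, 0.04 and 0.08 and daf-3 on 188906_s_at at 0.05, 0.04 and 0.14 under the last 3. With references 1 to 3 dbl-1 on 193109_s_at was at −0.04, daf-4 on 176598_s_at at 0.16 and daf-14 on 175659_at at −0.04. With references 4 and 5 daf-7 was at −0.10, daf-4 on 175667_at at −0.16 and daf-5 on 194243_x_at at 0.10. In the contrasts tig-2 was at 0.01 (centring) and 0.08 (random block) and daf-7 at 0.08 (random block) for embryonic minus larval pan-neural, daf-8 at 0.00 (log2(intensity + 16)) and −0.05 (random block) for A-class minus larval pan-neural, and daf-14 on 175659_at at 0.00 (centring) for A-class minus embryonic.

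With 1 array left out, the uncalled values that could change sign ran as follows. In embryonic neurons they ran from −0.09 to 0.04 for daf-1 on 189103_at, −0.05 to 0.21 for daf-14 on 175659_at, −0.07 to 0.26 for daf-3 on 188906_s_at and −0.12 to 0.15 for daf-5 on 194243_x_at. For the larval pan-neural comparison they ran from −0.03 to 0.24 for dbl-1 on 193109_s_at, −0.12 to 0.13 for daf-8 and 0.00 to 0.09 for daf-5 on 187941_at. For the A-class comparison they ran from −0.04 to 0.10 for daf-7, −0.12 to 0.10 for daf-1 on 174801_at, −0.03 to 0.32 and −0.12 to 0.11 for daf-4 on 175667_at and 176598_s_at, −0.06 to 0.04 for daf-8, −0.01 to 0.26 for daf-14 on 175659_at, −0.17 to 0.09 for daf-3 on 188906_s_at, and −0.06 to 0.15 and −0.22 to 0.13 for daf-5 on 171993_x_at and 194243_x_at. For embryonic minus larval pan-neural they ran from −0.21 to 0.24 for daf-7, −0.13 to 0.09 for tig-2 and −0.06 to 0.38 for daf-4 on 176598_s_at, and for A-class minus larval pan-neural from −0.21 to 0.06 for dbl-1 on 193109_s_at and −0.13 to 0.12 for daf-8. For A-class minus embryonic they ran from −0.14 to 0.19 for daf-14 on 175659_at, −0.44 to 0.08 and −0.29 to 0.04 for daf-3 on 173439_at and 188906_s_at, and −0.28 to 0.01, −0.18 to 0.05 and −0.27 to 0.09 for daf-5 on 171993_x_at, 187941_at and 194243_x_at.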
